A study of Mus musculus with 6 samples.

Results

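The loci described here are 90 of the 680 rows of a table of gene expression in MC3T3 cells, a mouse line of bone-forming (osteoblast) precursors. They are all the rows, none of them on chromosome Y, whose type in the GENCODE M21 annotation is TEC, a class of transcripts that await experimental proof. The libraries fell into 2 groups. In the control group, 3 libraries came from MC3T3 cells that received nothing. In the exosome group, 3 libraries came from MC3T3 cells kept for 48 hours with exosomes, small vesicles shed by cells, from HUVEC, endothelial cells of the human umbilical vein. Both groups grew in medium with serum and antibiotics, and the labels give bone as the tissue and stem cells as the cell type. The titles call the libraries of each group biology repeats, but separate cultures are not stated for the repeats. The p-values therefore measure only the spread between these libraries.

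GENCODE gives the TEC type mostly to unspliced transcripts that were seen as clusters of expressed sequence tags with signs of a poly(A) tail. Many lie within introns of known genes. There, reads of a locus on the gene's own strand cannot be told from reads of the gene's unspliced RNA. When libraries or counting ignore strand, the same holds on the other strand. Whether strand was used here was not given in the sources used.

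All 90 loci had 1 exon, with a median length of 2668.5 bases (464 to 6960), and they were spread over 17 chromosomes. Of these, 78 lay wholly inside the span of another gene, 63 on that gene's strand and 15 on the opposite strand, and 12 lay inside no other gene. The 78 loci had 77 enclosing genes, 71 of them protein-coding, with a median span of 77942 bases. Among the 78, 67 fell entirely within introns and 11 shared bases with an annotated exon of the enclosing gene. Among all 3210 TEC loci of the annotation, 1608 lay inside a gene on the same strand, 417 inside one on the opposite strand, 81 inside genes of both strands and 1104 inside none.

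Sequences of the loci were read from the GENCODE M21 transcripts (GRCm38), 5′ to 3′ on the strand of each locus. The last 60 bases of 7 of the loci named below are shown as examples, with the poly(A) signal hexamer AATAAA in capitals where it occurs. These 7 do not stand for the share of all loci with the hexamer, which is given after them. The last 60 bases of Gm37776 and Gm5953, also named below but not shown, lack it. The top 4 were lower with exosomes and the bottom 3 higher.

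9130214F15Rik, plus strand, chr8:24508023-24508082: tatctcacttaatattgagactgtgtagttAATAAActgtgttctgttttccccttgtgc
Gm17530, minus strand, chr9:86546682-86546741: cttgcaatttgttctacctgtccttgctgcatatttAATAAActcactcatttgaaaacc
Gm49125, minus strand, chr14:45612772-45612831: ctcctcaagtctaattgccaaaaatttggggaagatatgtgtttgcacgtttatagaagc
Gm43858, plus strand, chr3:152387978-152388037: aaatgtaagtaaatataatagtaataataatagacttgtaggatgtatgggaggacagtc
Gm45769, plus strand, chr6:133112242-133112301: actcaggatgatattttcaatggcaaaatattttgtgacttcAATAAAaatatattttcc
Gm47513, plus strand, chr13:64154537-64154596: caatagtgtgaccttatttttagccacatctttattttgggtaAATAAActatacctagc
Gm38345, minus strand, chr19:37432909-37432968: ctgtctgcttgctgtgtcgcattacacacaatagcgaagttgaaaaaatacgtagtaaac

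In the last 50 bases, AATAAA on the sense strand was found in 19 of the 90 loci (21.1%), against 22.0% of the 3146 annotated TEC loci with a full-length sequence. By position it was found in 8 of 63 loci inside a gene on the same strand (12.7%), 6 of 15 on the opposite strand (40.0%) and 5 of 12 inside no gene (41.7%). The same shares over the annotation were 15.3%, 29.0% and 29.9%. The reverse complement of that hexamer was found in 1 of the 90 windows (1.1%), against 4.6% of the annotated ones. A run of at least 10 A was present somewhere in 24.4% of the loci and a run of at least 10 T in 37.8%, against 18.4% and 24.1% over the annotation. The median annotated locus was shorter, at 1992 bases. Median GC content was 44.0% in the table and 42.2% over the annotation.

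The table holds only genes that the authors had called changed in these same libraries, per the name of the deposited file. Values are FPKM, fragments scaled by exon length and library depth, and the reads behind them were recovered from the step between FPKM values. Depth was 39630444 to 48369052 reads in the controls and 51315986 to 54429032 with exosomes, a ratio of group means of 1.20. Of 10 osteoblast lineage markers 1, Dmp1, is among the 680 genes, and none of 6 endothelial, 3 leukocyte, 3 adipocyte or 3 muscle markers is, so the identity of the cells could not be checked here.

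The TEC loci were weak and most were lower with exosomes. The median locus had 0.128, 0.161 and 0.105 FPKM in control libraries 1, 2 and 3, and 0.0323, 0.0313 and 0.0171 in exosome libraries 1, 2 and 3. The 2 groups of medians did not overlap, and neither did the medians over all rows, given below. The rows had been selected as changed in these libraries, so this separation and that of the sums that follow are no finding. Summed over the 90 loci, the reads scaled to library depth (RPM) were 64.3, 71.1 and 63.1 in the controls and 28.3, 23.9 and 29.1 with exosomes. Without Gm42793, the strongest locus, the sums were 49.1, 59.5 and 51.1 against 22.7, 19.1 and 21.5. Control library 2 held the highest control value in 40 of the 90 loci, library 1 in 28 and library 3 in 24, with ties counted for each. In bulk RNA, fewer cells that make a transcript and less of it per cell cannot be told apart.

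The mean FPKM was lower in the exosome group in 83 loci (92.2%) and higher in 7 (7.78%), against 74.0% lower and 26.0% higher over the 680 rows. Because the level of these loci is low, the rows under a mean of 1 FPKM are set beside them. There, 79 of 85 TEC loci (92.9%) and 347 of 457 other rows (75.9%) were lower. The median ratio of exosome to control mean FPKM was 0.199 over the TEC loci and 0.381 over all rows. On the scale of log2(FPKM + 1), which understates changes of weak loci, the median difference was −0.13 for both. No locus had a smaller change than 2.08-fold down or 2.01-fold up. The rows had been selected as changed, so this gap is no finding. In 24 loci, all exosome libraries were listed at 0, with 10 to 24 reads in the controls together. The same held for 87 of all 680 rows, and for 63 of the 457 other rows under 1 FPKM.

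The test was limma on log2(FPKM + 1) across all 680 rows, with Benjamini-Hochberg adjustment over them and a threshold of 0.05. Since the rows had been selected on these libraries, every adjusted p is too small. It called 44 TEC loci (48.9%), against a background of 59.3% of all rows, 42 of them lower (46.7%, background 43.8%) and 2 higher (background 15.4%). The share of loci called lower thus lay near the background. The groups did not overlap in 75 loci (background 86.9%), 68 with all exosome libraries lower (75.6%, background 64.1%) and 7 with all higher (7.78%, background 22.8%). Without exosome library 1, 2 or 3, limma called 24, 17 and 14 loci, and without a control library 33 to 40. The shares of all rows called in those fits are not given, so fewer calls cannot be read as particular to the TEC loci. The median of log2(FPKM + 1) over all 680 rows was itself lower with exosomes, at 0.156, 0.126 and 0.153 against 0.271, 0.315 and 0.288 in the controls. After each library was centred on that median, 40 loci were lower, with 9 called lower and 20 higher, so directions below are those without centring. Centring moves every difference up by the same amount, also that of loci without exosome reads. A locus called higher after centring therefore need not have a higher FPKM with exosomes. With limma-voom on the recovered reads, 84 loci were called, against a background of 94.4%.

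**Figure D1:**
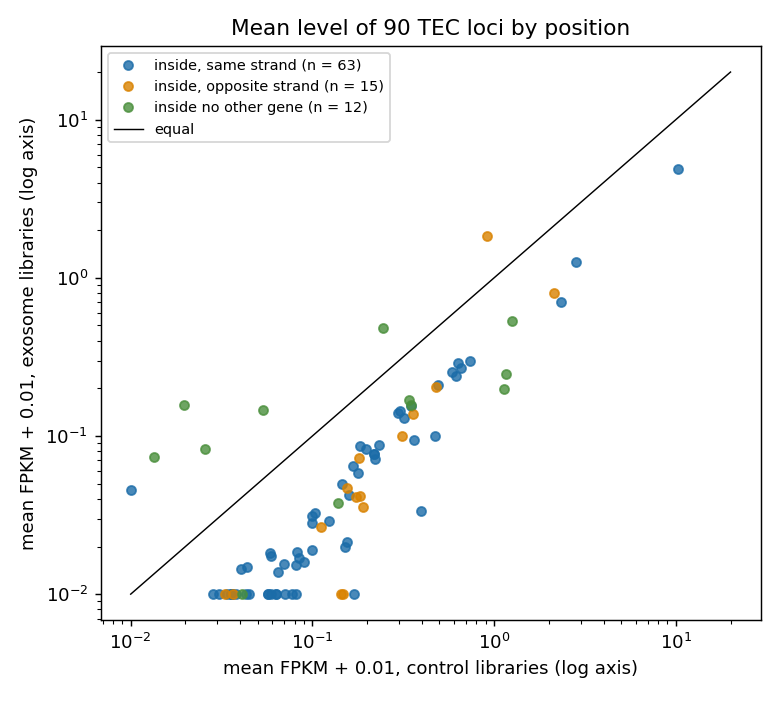
Mean FPKM + 0.01 of each of the 90 TEC loci in the control (x axis) and exosome (y axis) libraries, both axes logarithmic, coloured by position, with the line of equal means. There are 83 loci below the line and 7 above it, and the row of points at the bottom holds the 24 loci listed at 0 in every exosome library.

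The split by position is as follows. Over all rows, 74.0% were lower, and limma called 43.8% lower and 15.4% higher. Inside a gene on the same strand, 62 of 63 loci were lower (98.4%), and limma called 28 of them lower (44.4%, against 43.8% of all rows) and none higher at an adjusted p under 0.05. Inside a gene on the opposite strand, 14 of 15 were lower, with 9 called lower and 1 higher. Inside no other gene, 7 of 12 were lower (58.3%) and 5 higher, with 5 called lower (41.7%) and 1 higher. The median ratio of exosome to control was 0.150, 0.191 and 0.460 in the 3 positions. The difference between positions was not tested. When any overlap with another gene counted as inside, 6 loci were left outside, 4 lower and 2 higher.

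**Figure D2:**
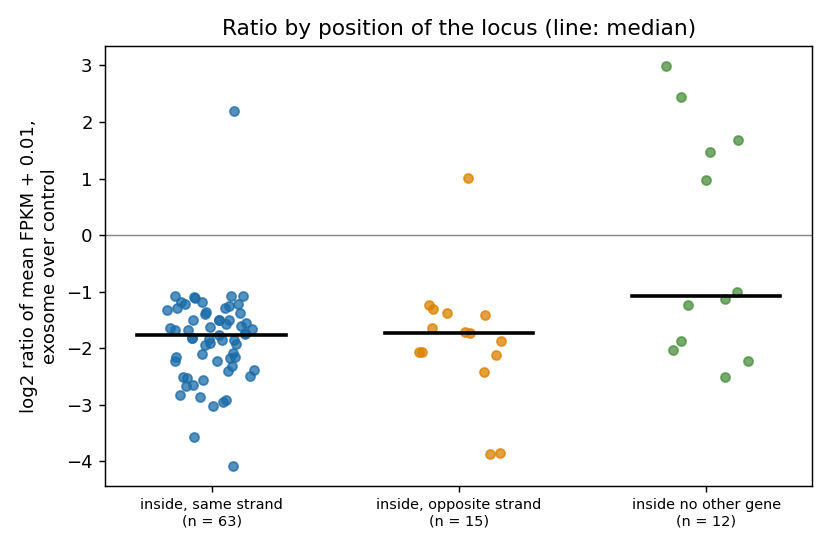
Each point is a TEC locus, the y axis is the log2 ratio of mean FPKM + 0.01, exosome over control, and the black line is the median of each position. There is 1 locus above 0 among the 63 inside a gene on the same strand, 1 among the 15 on the opposite strand and 5 among the 12 inside no gene.

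Among loci on the strand of their enclosing gene, the strongest was Gm42793 (chromosome 5, 104435121 to 104436372, plus strand), inside Spp1. Spp1 encodes osteopontin, a secreted phosphoprotein of bone matrix, and is not among the 680 genes. The locus starts near the start of Spp1 and shares 309 of its 1252 bases (24.7%) with exons of that gene. The other 943 bases belong to no annotated Spp1 exon. The first 100 of them are shown for that reason, with the GT of the splice donor of some Spp1 transcripts in capitals.

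Gm42793, plus strand, chr5:104435249-104435348: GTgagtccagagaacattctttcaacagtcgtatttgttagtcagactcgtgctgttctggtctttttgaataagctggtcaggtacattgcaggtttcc

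Gm42793 had 12.2, 9.22 and 9.56 FPKM in control libraries 1 to 3 and 4.54, 3.87 and 6.12 in exosome libraries 1 to 3. All exosome libraries lay below all control libraries. The mean of 10.3 ± 1.62 FPKM in the controls was 4.84 ± 1.15 with exosomes (SD, n = 3 per group), 2.13-fold lower. The log2(FPKM + 1) difference was −0.96 ± 0.17 (SE, limma adjusted p = 0.0136). Reads of its exonic part can be those of spliced Spp1 RNA.

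Gm49125 (chromosome 14, 45612772 to 45614066, minus strand) lies in an intron of Ddhd1, a phospholipase gene. It had 2.32, 2.11 and 2.54 FPKM in the controls and 0.459, 0.681 and 0.948 with exosomes. The log2(FPKM + 1) difference was −0.98 ± 0.12 (SE, limma adjusted p = 0.00634), a 3.34-fold fall from 2.32 ± 0.215 to 0.696 ± 0.245 FPKM (SD, n = 3 per group). The groups did not overlap.

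Gm43858 (chromosome 3, 152386260 to 152388037, plus strand) lies in an intron of Usp33, a gene of a deubiquitinating enzyme. Its FPKM was 2.48, 3.20 and 2.80 in the controls and 1.34, 1.00 and 1.38 with exosomes. It fell 2.28-fold (limma adjusted p = 0.00634), again with no overlap of the groups.

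**Figure D3:**
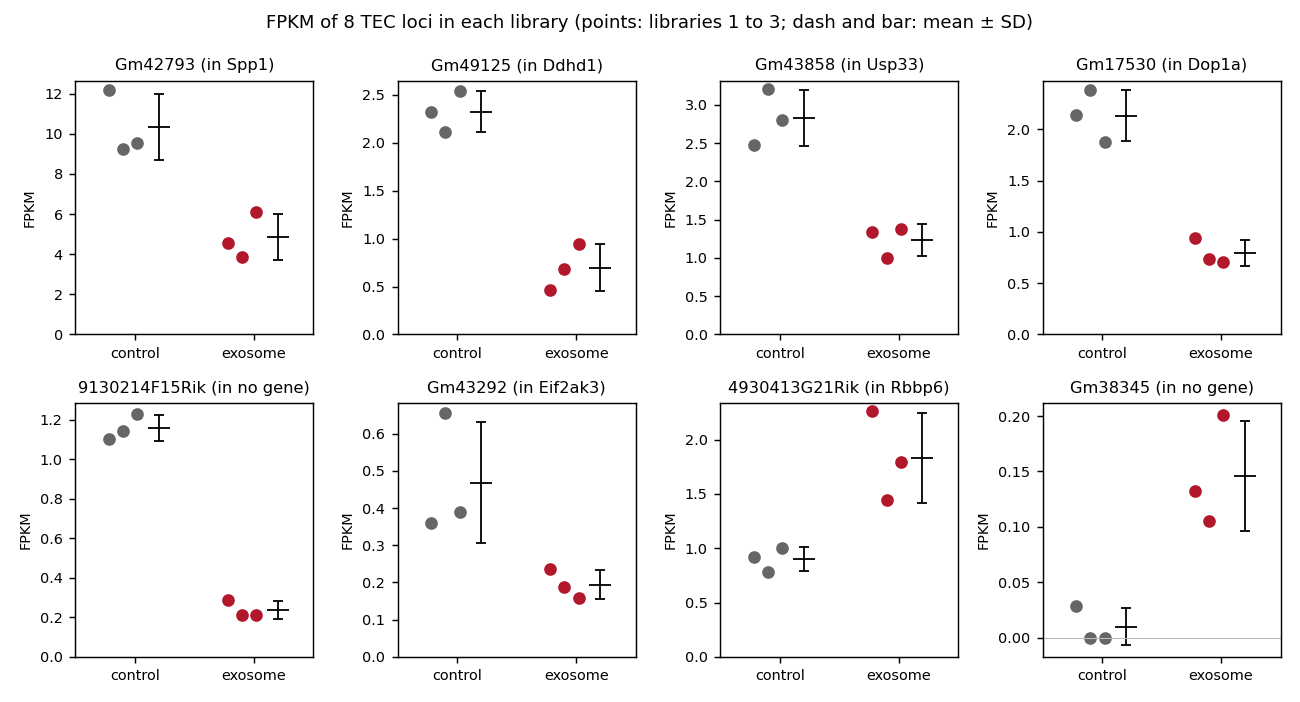
FPKM of 8 TEC loci in each library (points, libraries 1 to 3 from left to right) with the mean and SD of each group of 3 beside them; each panel has its own linear axis. The groups do not overlap in any panel. In Gm42793, Gm49125, Gm43858, Gm17530, 9130214F15Rik and Gm43292 the exosome points are the lower ones, and in 4930413G21Rik and Gm38345 the higher ones.

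Other loci with large differences on the log2(FPKM + 1) scale, which favours stronger loci, were weaker in level. The first 3 below fell less in fold (2.56, 2.51 and 2.38) than the median of 3.45 over the lower loci not at 0. The folds of Gm42793, Gm49125 and Gm43858 above (2.13, 3.34 and 2.28) also lay under that median. Gm37776, in an intron of Lekr1, had means of 0.731 ± 0.109 FPKM in the controls and 0.286 ± 0.133 with exosomes (SD, n = 3; limma adjusted p = 0.0179). Gm43088, in Dnajb14, which encodes a co-chaperone of the endoplasmic reticulum membrane, went from 0.648 ± 0.170 to 0.258 ± 0.0673 (limma adjusted p = 0.0222). Gm38319, in Lactb2, an endoribonuclease gene, went from 0.574 ± 0.132 to 0.242 ± 0.102 (limma adjusted p = 0.0278). Gm44931, in Crtc3, a gene of a CREB coactivator, had 5, 14 and 9 reads in the controls and 2, 0 and 0 with exosomes, a fall that rests on few reads (limma adjusted p = 0.0226). These calls were not stable. After median centring the limma adjusted p of Gm37776, Gm43088 and Gm38319 was 0.0570, 0.0533 and 0.0954. That of Gm37776 was lost without exosome library 2 (0.0571), that of Gm44931 without exosome library 2 or 3 (0.0698 and 0.0682), that of Gm43088 without any library but control 1 (0.0521 to 0.0683) and that of Gm38319 when library 2 or 3 of either group was left out (0.0603 to 0.0780; limma adjusted p throughout). With the replicate number as a block, Gm43088, Gm38319 and Gm44931 had limma adjusted p values of 0.0632, 0.0802 and 0.0659.

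Several loci lie in genes with known parts in bone or signalling, named here after their values were seen. Gm45257 lies in an intron of Cdh11, the osteoblast cadherin gene. It had 0.278, 0.471 and 0.310 FPKM in the controls and 0.0624, 0.129 and 0.0634 with exosomes (limma adjusted p = 0.0163, but 0.0526 without exosome library 3 and 0.0620 after median centring). The groups did not overlap.

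Tiaf2 lies in an intron of Ank, whose product moves pyrophosphate, an inhibitor of mineralisation, out of cells. It had 3, 3 and 6 reads in the controls and 0 in every exosome library (limma adjusted p = 0.0559). Gm42820 overlaps 541 bases of exons of Notch2, a Notch receptor gene, and had 11, 16 and 10 against 5, 6 and 0 reads (limma adjusted p = 0.0438). That call did not hold when control library 1 or 2, or each exosome library in turn, was left out (limma adjusted p 0.0745 to 0.122) or with the replicate block (0.0860). Median centring, which moves every difference up, turned the direction of Gm42820 (log2(FPKM + 1) difference 0.0505 against −0.10, limma adjusted p = 0.269). Gm37121 lies in an intron of Nrp2, a gene of a receptor for semaphorins and vascular growth factors, and had 0.604 ± 0.282 against 0.230 ± 0.0776 FPKM (SD, n = 3; limma adjusted p = 0.0601, and 0.0491 without control library 1). Its control mean rests in part on library 2, at 0.925 against 0.395 and 0.493 FPKM.

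Of the loci on the opposite strand of their enclosing gene, Gm17530 had the highest level in the controls (chromosome 9, 86546682 to 86547153, minus strand). It lies in an intron of Dop1a, a gene linked to membrane traffic. Its FPKM was 2.14, 2.38 and 1.88 in the controls and 0.935, 0.740 and 0.702 with exosomes, on 40, 49 and 43 against 23, 19 and 17 reads. Its mean FPKM fell 2.70-fold, less than the median of 3.45 over the lower loci not at 0. The log2(FPKM + 1) difference was −0.81 ± 0.0797 (SE, limma adjusted p = 0.00512).

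Gm43292 (chromosome 6, 70883354 to 70885802, minus strand) is antisense to Eif2ak3, the gene of PERK, a stress kinase of the endoplasmic reticulum in the title of the series, and was named after its values were seen. Eif2ak3 itself is not among the 680 genes. The locus spans 485 bases of Eif2ak3 coding exons. The shortest of these exons (123 bases, 70884770 to 70884892) is shown with 20 bases on either side. It is given on the strand of the locus, where its bases are the reverse complement of the PERK gene's. Capitals mark the exon.

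Gm43292, minus strand, chr6:70884750-70884912: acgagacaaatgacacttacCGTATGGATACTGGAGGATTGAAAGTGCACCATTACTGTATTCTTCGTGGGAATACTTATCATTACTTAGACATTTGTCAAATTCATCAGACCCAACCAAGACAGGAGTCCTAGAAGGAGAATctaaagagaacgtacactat

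Gm43292 had 0.361, 0.656 and 0.388 FPKM in the controls and 0.235, 0.188 and 0.159 with exosomes. The groups did not overlap, and control library 2 stood above the other control libraries. Its mean was 0.468 ± 0.163 FPKM in the controls and 0.194 ± 0.0383 with exosomes (SD, n = 3; limma adjusted p = 0.0345). Its limma adjusted p without control library 3, or without each exosome library, was 0.0536 to 0.0982, with the replicate block 0.0743 and after median centring 0.157. Reads of the locus and of unspliced or spliced Eif2ak3 RNA cannot be told apart without strand.

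Antisense loci with few reads, of which 4930599N24Rik was named after its values were seen, fell as well. 4930599N24Rik, antisense to Ppp3ca, the calcineurin catalytic subunit gene, had 6 reads in each control library and 0 in each exosome library (limma adjusted p = 0.00634, but 0.336 after median centring). Gm45845 lies antisense to the antisense RNA gene Gm45016, the only enclosing gene that is itself a row of the table. It had 5, 2 and 3 against 0, 0 and 0 reads (limma adjusted p = 0.0330), a call lost without control library 3 or any exosome library (0.0560 to 0.0909), with the replicate block (0.0742) and after median centring (0.666). Gm45016 was also listed at 0 in every exosome library and had 0.127, 0.232 and 0.313 FPKM in the controls.

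Pairs of loci in Spata7, Foxn3 and 2010111I01Rik, named after their values were seen, share a gene and are no independent evidence. In Spata7, the gene of a ciliary protein, Gm47370 lies on the gene's strand and Gm47372 on the other. Gm47370 had 0.345, 0.653 and 0.384 FPKM in the controls and 0.0420, 0.1 and 0.128 with exosomes (limma adjusted p = 0.0181, and 0.0544 and 0.0565 without exosome library 1 or 2). Gm47372 had 0.356, 0.324 and 0.228 against 0.0325, 0.161 and 0.0770 FPKM (limma adjusted p = 0.0232, and 0.0534 to 0.0692 when control 1 or 2, or exosome 1 or 3, was left out). With the replicate block, the limma adjusted p of Gm47372 was 0.0586, and after median centring 0.233. Both loci were thus lower in every exosome library, on opposite strands of a gene.

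In Foxn3, a forkhead factor gene, Gm47138 had 0, 8 and 4 reads and Gm47139 0, 12 and 2 in the controls, with 0 in every exosome library. In 2010111I01Rik, Gm47586 had 1, 12 and 1 control reads with none with exosomes, and Gm47602, on the opposite strand, had 8, 20 and 2 against 4, 0 and 2. Control library 2 was the highest in each of these 4 loci. None of them passed (limma adjusted p = 0.256, 0.259, 0.244 and 0.161).

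**Figure D4:**
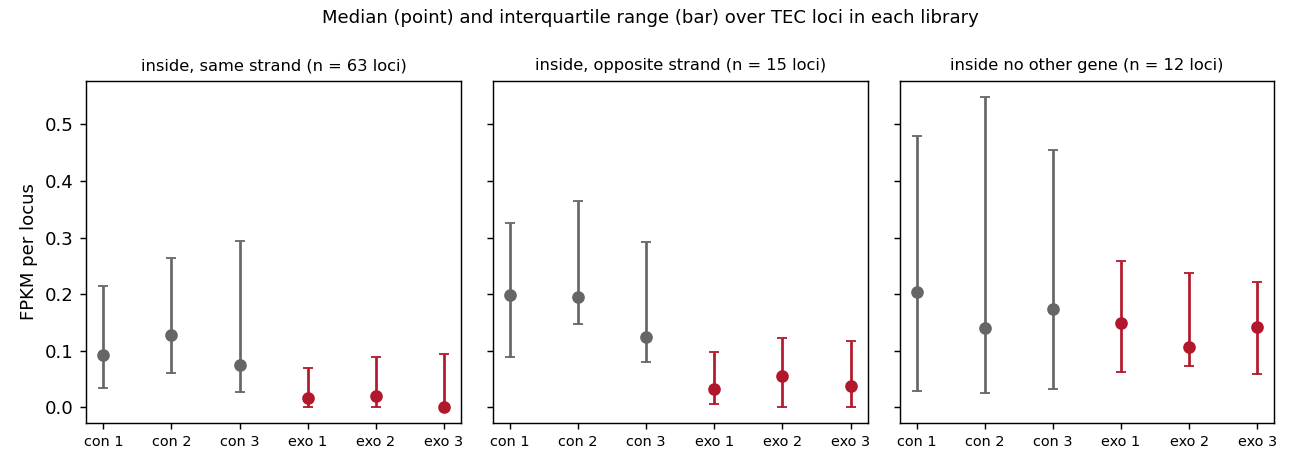
Median FPKM (point) and interquartile range (bar) over the TEC loci of each position in control libraries 1 to 3 (con) and exosome libraries 1 to 3 (exo). Inside genes on the same strand the medians are 0.0920, 0.128 and 0.0751 in control and 0.0165, 0.0205 and 0 in exosome libraries; inside no gene they are 0.203, 0.141 and 0.174 against 0.149, 0.106 and 0.142.

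Among the 12 loci inside no other gene, one that fell was 9130214F15Rik (chromosome 8, 24506430 to 24508082, plus strand). The nearest gene other than TEC loci, Ido2 on the opposite strand, ends 23810 bases downstream. Its FPKM was 1.1, 1.14 and 1.23 in the controls and 0.290, 0.211 and 0.212 with exosomes. The fall was 4.85-fold, from 1.15 ± 0.0648 to 0.238 ± 0.0453 FPKM (SD, n = 3). The log2(FPKM + 1) difference was −0.80 ± 0.0401 (SE), with the lowest limma adjusted p among the TEC loci (0.00139).

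Gm37090 overlaps 305 exon bases of Gm16008, an antisense RNA gene on the same strand that is also a row of the table, and had 1.25 ± 0.192 FPKM in the controls but 0.526 ± 0.0685 with exosomes (SD, n = 3; limma adjusted p = 0.00666). 4930588D02Rik had 0.544, 1.88 and 0.936 FPKM in the controls and 0.165, 0.317 and 0.0840 with exosomes, on 10, 38 and 21 against 4, 8 and 2 reads. Its limma adjusted p was 0.0397, 0.0790 to 0.107 without control library 3 or any exosome library, 0.0503 with the replicate block and 0.0656 after median centring. It fell 5.93-fold. Control library 2 was the highest of its controls.

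The 7 loci that were higher with exosomes had groups that did not overlap, as had 155 of the 177 higher rows among all 680. At a limma adjusted p under 0.05, 105 of those 177 rows passed, and 2 of the 7 loci did. The stronger was 4930413G21Rik (chromosome 7, 122969058 to 122970050, minus strand), which lies inside Rbbp6 on the opposite strand. Rbbp6 encodes a ubiquitin ligase that binds p53 and the retinoblastoma protein. The locus had 0.915, 0.786 and 0.999 FPKM in the controls and 2.26, 1.44 and 1.79 with exosomes. Its mean rose from 0.900 ± 0.108 to 1.83 ± 0.410 FPKM (SD, n = 3). The log2(FPKM + 1) difference was 0.57 ± 0.12 (SE, limma adjusted p = 0.0166, and 0.0516 without exosome library 3).

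Gm38345 (chromosome 19, 37432909 to 37434656, minus strand) begins 154 bases from the start of Hhex, a homeobox factor gene on the opposite strand, and the pair points away from each other. It had 2, 0 and 0 reads in the controls and 12, 10 and 18 with exosomes, or 0.0289, 0 and 0 against 0.132, 0.105 and 0.201 FPKM. The log2 difference was 0.18 ± 0.0393 (SE; limma adjusted p = 0.0184, and 0.0594 with the replicate block). The 153 bases between the annotated starts, taken from the RefSeq promoter of Hhex (GRCm38.p6) on the plus strand, are shown with each CG in capitals.

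Gm38345 to Hhex, plus strand, chr19:37434657-37434809: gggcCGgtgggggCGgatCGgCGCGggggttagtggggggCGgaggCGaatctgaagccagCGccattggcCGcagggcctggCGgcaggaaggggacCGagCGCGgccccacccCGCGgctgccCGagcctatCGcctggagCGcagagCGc

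It holds 19 CG pairs. The 153 bases before the start had a median of 4 in 32851 RefSeq promoters, and 8.06% of them had at least 19.

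A short distance to an opposite coding start was shared by other loci that were higher. Gm26616 begins 438 bases from a transcript start of Ppp1r15b, whose product guides a phosphatase to eIF2α and so opposes PERK, and overlaps 640 of its exon bases. It had 4, 2 and 0 reads in the controls and 8, 18 and 10 with exosomes (limma adjusted p = 0.0726). Gm47513 begins 96 bases from a start of Zfp367, a zinc finger factor gene, and overlaps 603 of its exon bases. It had 0, 0 and 1 against 11, 4 and 5 reads (limma adjusted p = 0.0711). 4930413G21Rik begins 514 bases from a start of Rbbp6.

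In all, 6 of the 90 loci (6.67%) began within 1000 bases of a transcript start of a coding gene on the opposite strand, against 7.38% of the 3210 annotated TEC loci. Of these 6, 4 were higher and 2 lower, and of the other 84 loci 3 were higher and 81 lower. The limit of 1000 bases was chosen after the values were seen, and no test was made. The lower 2 were Gm37174, 68 bases from a start of Insig2, and Gm47602, 265 bases from a start of 2010111I01Rik. Gm37174, named after its values were seen, had 24, 26 and 6 reads in the controls and 2, 10 and 6 with exosomes (limma adjusted p = 0.103, and 0.0157 without control library 3). Counted from the outermost start of each gene, 3 loci lay within 1000 bases, all 3 of them higher. Ppp1r15b, Zfp367, Hhex and Rbbp6 are not among the 680 genes, so their own levels are not set beside these loci.

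**Figure D5:**
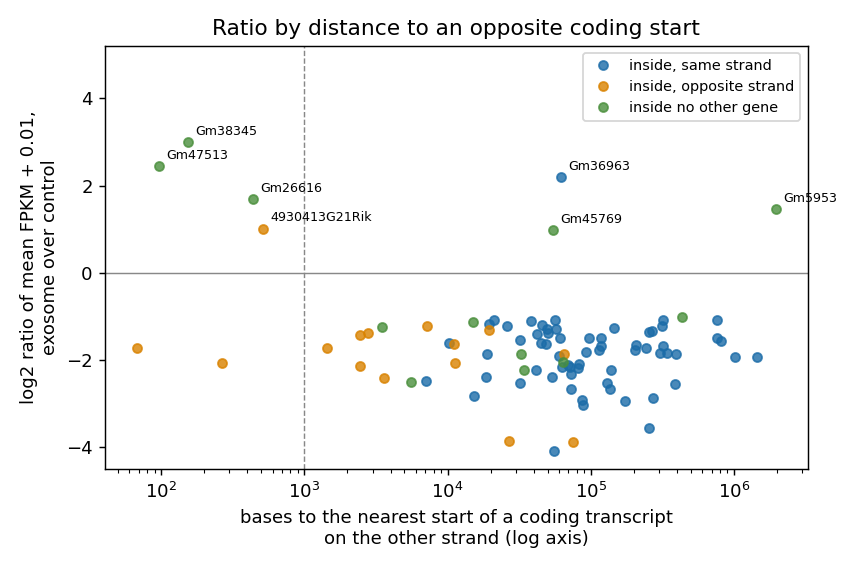
Log2 ratio of mean FPKM + 0.01, exosome over control (y axis), of each TEC locus against the distance in bases from its start to the nearest transcript start of a coding gene on the opposite strand (logarithmic x axis), coloured by position. The 7 loci above 0 carry their names; left of the dashed line at 1000 bases are 4 loci above 0 and 2 below it.

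The other 3 loci that were higher lay far from such starts. Gm45769 overlaps 107 exon bases of Smim10l1, a gene of a small membrane protein on the same strand, and had 0.248, 0.201 and 0.260 FPKM in the controls and 0.283, 0.513 and 0.629 with exosomes (limma adjusted p = 0.0659, and 0.0196 without exosome library 1). Gm5953, 1636 bases from the lincRNA gene Gm10479, had 0.0289, 0.0614 and 0.0395 against 0.0660, 0.0913 and 0.253 FPKM (limma adjusted p = 0.156), with exosome library 3 well above the others. Gm36963, inside the microRNA host gene Mir99ahg on the same strand, had no read in any control and 2, 3 and 8 reads with exosomes (limma adjusted p = 0.152).

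Beside the TEC loci, 58 of 66 antisense RNA loci (87.9%) and 30 of 45 lincRNA genes (66.7%) of the table were lower, with median ratios of exosome to control mean FPKM of 0.336 and 0.393. All 7 sense intronic RNA loci of the table, a class that like many TEC loci lies in introns on the strand of a gene, were lower, with a median ratio of 0.269. In protein-coding genes 233 of 334 (69.8%) were lower, with a median ratio of 0.429. These classes were set side by side without a test.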

How the data were processed

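The deposited table gives FPKM per gene and library, as the name of the deposited file says, for genes the authors had called changed. Trizol RNA went into SMARTer mRNA libraries, per the labels' protocols. The sources used here give no aligner, counter, strand setting, build or caller. Types and positions came from GENCODE M21 (GRCm38), which matched 672 of 680 identifiers. FPKM times exon length gave whole reads, within 0.02 reads, in all 6 libraries for 661 genes and all 90 TEC loci. Of 274 TEC values from 2 to 21 reads, 83.9% were even, as when both mates are counted, so fewer fragments stand behind them. Over 3 libraries together the median locus had 34 reads in control and 10.5 in exosome.

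limma 3.58.1 (R 4.3.3) was fitted to log2(FPKM + 1) of all 680 rows, with group as its only term, two-sided. The fit was checked on simulated normal values, without prior selection of rows and without read counts. That check therefore does not cover the effect of the selection or of loci with few reads. Named loci are the 12 largest falls and all rises, on the log2(FPKM + 1) scale, that passed without overlap of the groups. That scale favours stronger loci, so these are not the 12 largest falls in fold. Also named are the 5 of highest mean, every locus higher with exosomes and those whose enclosing gene is a row. For other loci the text says that they were named after their values were seen. The members, lists and tests were chosen with earlier results of these data known. Alternatives were pseudocounts of 0.1 and 0.01, limits of 1 and 0.1 FPKM, a 2-fold limit, median centring, a robust trended prior, a replicate block, limma-voom on recovered reads, leaving out each library, and other definitions of inside. No column was left unused. A withheld item is not reported here.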

Additional observations from a re-analysis of the deposited data

How the results depend on the processing

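limma called 44 loci, 42 lower and 2 higher. The share of all rows called is given for this fit and for limma-voom alone. Counts under the other settings can therefore not be set against all rows. The count was 76 (69 lower, 7 higher) with a pseudocount of 0.01, 60 (5 higher) with 0.1, 67 (5 higher) with a trended and robust prior and 84 (79 lower, 5 higher) with limma-voom on recovered reads, which called 94.4% of 661 rows; all 44 were among each of these. With fewer loci tested, it was 28 of 38 (27 lower, 1 higher) at a mean of at least 0.1 FPKM and 5 of 5 (4 lower, 1 higher) at 1 FPKM, and 36 and 4 loci had the lower mean there. Median centring gave 29 calls (9 lower, 20 higher) and 40 loci lower. Leaving out 1 library gave 14 to 40 calls, 13 to 38 lower and 1 to 3 higher. The replicate block gave 18 calls (17 lower, 1 higher), 17 of them among the 44; the deviations of libraries with one number correlated at −0.135, 0.0767 and −0.222, so no pairing was assumed.

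The median log2 difference of −0.13 was −0.73 and −1.72 with pseudocounts of 0.1 and 0.01, −0.24 and −0.81 at 0.1 and 1 FPKM, 0.0207 after centring, and −0.14 to −0.0935 without 1 library. Centring reversed Gm42820, Tiaf2, Gm47138, Gm47139, Gm47586, Gm47602 and Gm37174 (limma adjusted p = 0.269, 0.0846, 0.0243, 0.187, 0.234, 0.633 and 0.939). It moves the difference of every locus up by the same amount. Tiaf2, Gm47138, Gm47139 and Gm47586 had no read in any exosome library, so their reversal is not a rise in reads. Of the 32 named loci, 9 more kept their direction but lost their call under centring, Gm37776, Gm38319, Gm43088, Gm43292, Gm45257, Gm45845, Gm47372, 4930588D02Rik and 4930599N24Rik. Gm26616, Gm45769, Gm47513, Gm5953 and Gm36963, all higher with exosomes, gained a call under it (limma adjusted p = 0.0112, 0.0238, 0.00683, 0.0238 and 0.00886). Why the library medians differ was not tested. Counting any overlap as inside left 4 lower loci outside, and counting only coding genes left 12 lower of 18. Of the 90 loci, 34 had under 30 reads over all libraries, which limits their precision.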
